A study of Mus musculus with 4 samples.

Results

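The ABC drug efflux transporters examined here are 9 genes chosen by symbol from the 32285 genes of each matrix, namely *Abcb1a*, *Abcb1b*, *Abcc1*, *Abcc3*, *Abcc4*, *Abcc5*, *Abcg2*, *Abcb10* and *Abce1*. Each symbol matched 1 row of the gene table. Their transcripts were measured by single-cell RNA sequencing in tumors that Dalton's lymphoma ascites (DLA) cells formed in Swiss albino mice after intraperitoneal injection. Control 1 and Control 2 came from mice that the labels call untreated and the supplement calls vehicle controls. Treated 1 and Treated 2 came from mice given SP11, an inhibitor of the chaperone HSP90, by mouth at 30 mg/kg for 17 days. All 4 libraries thus share the strain and the DLA graft and differ in SP11. Where 4 values are listed below, they follow that order, the controls first and the treated libraries after them. The labels give the libraries as separate samples and do not name the animals behind them, so the tests below measure the spread between libraries only.

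ABC transporters are membrane proteins that use ATP to move substrates across a membrane. P-glycoprotein, the multidrug resistance-associated proteins and the breast cancer resistance protein pump drugs, drug conjugates and signaling molecules out of cells, and tumor cells that carry much of them can survive chemotherapy. Mice have 2 genes for P-glycoprotein, *Abcb1a* and *Abcb1b*, where humans have 1. *Abcb10* and *Abce1* belong to the same gene superfamily but are not drug exporters: *Abcb10* sits in the inner mitochondrial membrane and is linked to heme making, and *Abce1* splits ribosomes after translation ends.

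Transcripts were counted as unique molecular identifiers (UMIs), so that each captured molecule counts once. Barcodes that had 200 or more genes and no more than 10% of UMIs from mitochondrial genes were kept as cells, 1482 from the control and 2922 from the treated libraries. A cell entered the tumor gate with at least 5 UMIs of the keratin genes *Krt8* and *Krt18* together, which gave 845, 528, 1256 and 582 cells. The label names the cells lymphoma. In the tumor gate, 9 epithelial genes outside the gate, among them *Krt19* and *Epcam*, summed to 1739 to 2759 UMIs per 1000000 (CPM), with 6 of the 9 detected in every library. The list of 9 B cell genes summed to 0.106 to 76.3 CPM and that of 10 T and NK cell genes to 1.37 to 20.02 CPM there. The gate is therefore described by its keratins, not as lymphoid cells.

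The immune and erythroid gates took cells below 5 keratin UMIs by their own markers. The macrophage and monocyte gate (*Csf1r*, *Adgre1*, the *C1q* genes and others) held few cells in the controls, 24 and 18, and more in the treated libraries, 183 and 128. The B gate held 157 cells in Treated 1 and 146 in Treated 2 but 1 in Control 1 and 0 in Control 2. The T gate held 10, 1, 16 and 82 cells. Tumor-gate libraries differed in depth, with median UMIs per cell of 10935, 17214, 8892 and 19843. Pairs of libraries listed between 60 and 359 cell barcodes in common, so the fits between groups and between gates were also made without the barcodes listed in more than 1 library.

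The genes lie on 6 chromosomes in the GENCODE vM21 annotation of the mouse build GRCm38 (mm10). The P-glycoprotein genes are neighbors on the forward strand of chromosome 5, *Abcb1a* (ENSMUSG00000040584) at 8660077 to 8748575 and *Abcb1b* (ENSMUSG00000028970) at 8798147 to 8866315. *Abcc1* occupies chromosome 16 from 14361558 to 14475737, and *Abcc5* lies on the same chromosome from 20331303 to 20426394. *Abcc4* spans 118482692 to 118706219 of chromosome 14 and is the longest of the 9 at 223.5 kb. *Abcc3* (chromosome 11), *Abcg2* (chromosome 6), *Abcb10* and *Abce1* (both chromosome 8) complete the list. Exons of *Abcb1a*, *Abcb1b* and *Abcb10* overlap the spans of predicted genes on the opposite strand. Whether they overlap exons of those predicted genes was not checked. The strand setting of the counting is not given in the sources used here, so *Abcb1a*, *Abcb1b* and *Abcb10* carry that uncertainty.

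Promoter sequences from RefSeq (build GRCm38.p6) were found for 7 of the 9 genes, and none were matched for *Abcc1* and *Abcc3*. Shown here, 5′ to 3′ on the gene's strand, are the 250 bases before the start of the P-glycoprotein pair, the classic drug pump genes, and of *Abcc4* and *Abcc5*, the members whose levels differed between macrophages and tumor cells by the test. They are chr5:8566841-8567090 (*Abcb1a*, forward), chr5:8797897-8798146 (*Abcb1b*, forward), chr14:118706220-118706469 (*Abcc4*, reverse) and chr16:20426395-20426644 (*Abcc5*, reverse). Capitals mark matches on either strand to the CCAAT box, to the GC box with the letters GGGCGG, to a TATA box read as TATAAA, to the E-box with the letters CACGTG, and to GAANNTTC, the core letters of a heat shock element.
Abcb1a: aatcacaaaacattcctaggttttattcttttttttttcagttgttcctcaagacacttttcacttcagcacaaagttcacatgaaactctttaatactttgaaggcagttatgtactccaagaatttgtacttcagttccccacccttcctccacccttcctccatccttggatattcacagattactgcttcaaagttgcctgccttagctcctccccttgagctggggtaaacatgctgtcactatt
Abcb1b: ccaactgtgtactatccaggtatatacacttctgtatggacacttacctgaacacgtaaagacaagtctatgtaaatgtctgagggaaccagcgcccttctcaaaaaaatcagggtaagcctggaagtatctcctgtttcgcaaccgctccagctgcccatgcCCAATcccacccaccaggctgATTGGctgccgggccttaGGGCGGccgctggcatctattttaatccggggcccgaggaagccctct
Abcc4: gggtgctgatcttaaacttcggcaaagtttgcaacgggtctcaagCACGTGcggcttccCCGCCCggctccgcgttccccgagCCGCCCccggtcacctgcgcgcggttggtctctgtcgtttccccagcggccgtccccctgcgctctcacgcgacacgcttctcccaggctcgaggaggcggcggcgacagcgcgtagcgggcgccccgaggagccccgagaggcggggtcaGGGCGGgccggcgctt
Abcc5: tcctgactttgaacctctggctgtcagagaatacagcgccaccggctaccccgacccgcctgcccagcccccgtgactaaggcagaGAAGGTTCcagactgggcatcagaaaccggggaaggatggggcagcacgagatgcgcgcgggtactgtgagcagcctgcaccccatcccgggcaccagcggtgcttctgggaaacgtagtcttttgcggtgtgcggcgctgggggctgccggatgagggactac

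The *Abcb1b* window held 2 matches to the CCAAT box and 1 to the GC box, and the *Abcb1a* window held none of the 5 motifs. The RefSeq start used for *Abcb1a* lies 92986 bases from the start of the gene in GENCODE vM21, whereas the other 3 windows end at the GENCODE start. G and C made up 40.4% of the *Abcb1a* window, 52.8% of the *Abcb1b* window, 72.0% of the *Abcc4* window and 64.0% of the *Abcc5* window. *Abcc4* carried 3 GC box matches and 1 E-box match, and *Abcc5* carried 1 match to the heat shock letters. Of all 32851 RefSeq promoter windows of this length, 33.9% held the CCAAT box, 32.7% the GC box, 12.4% the TATA box, 6.02% the E-box and 12.8% the heat shock letters. These matches describe the letters and are not evidence of binding.

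Transcripts of all 9 genes were found in the tumor gate of all 4 libraries, over a wide range of levels. *Abce1* stood highest at 50.5 to 61.1 CPM, and *Abcb1a* lowest at 0.163 to 0.739 CPM. Levels were then divided by the summed exon length to compare genes. Because the libraries count the 3′ ends of transcripts, such a level is only a rough guide. Per kilobase, *Abce1* again led at 8.42 to 10.2 CPM per kb. *Abcb10* (2.04 to 2.51), *Abcc4* (1.46 to 3.01) and *Abcb1b* (1.40 to 2.19 CPM per kb) followed with overlapping ranges over libraries. *Abcc1* at 0.914 to 1.55 CPM per kb overlapped *Abcb1b*. *Abcc5* at 0.262 to 0.671 and *Abcc3* at 0.204 to 0.260 CPM per kb came next, and their ranges did not overlap. *Abcg2* (0.0506 to 0.0998) and *Abcb1a* (0.0297 to 0.135 CPM per kb) had the lowest levels, with ranges that overlapped each other.

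**Figure D1:**
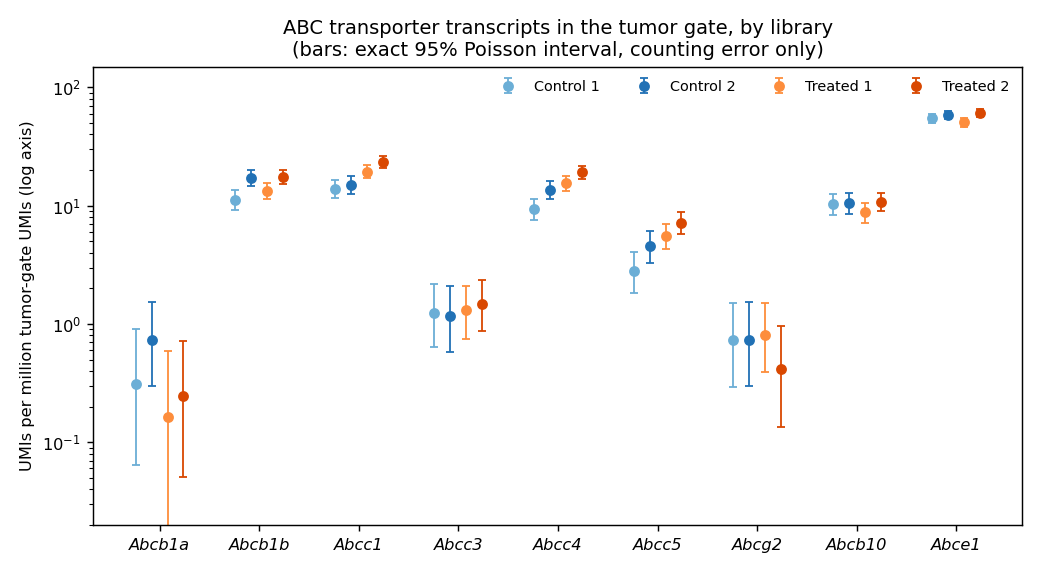
Level of each of the 9 genes in the tumor gate of each library, as UMIs per 1000000 tumor-gate UMIs on a log axis, with points for libraries and bars for the exact 95% Poisson interval (counting error only). Abce1 sits at 50.5 to 61.1 CPM in all libraries, Abcb1a, Abcc3 and Abcg2 stay below 2 CPM, and the 2 treated libraries lie above both controls for Abcc1, Abcc4 and Abcc5.

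The P-glycoprotein pair was unequal in tumor cells. *Abcb1b* gave 108, 164, 163 and 212 UMIs, against 3, 7, 2 and 3 UMIs of *Abcb1a*. Every library thus held far more *Abcb1b* than *Abcb1a*. Over the 4 libraries the tumor gate held 647 UMIs of *Abcb1b* and 15 of *Abcb1a*. Reads from stretches where their transcripts are identical cannot tell the paralogs apart. How such reads were counted was not examined. None of the 571 windows of 30 bases in the last 600 bases of the longest *Abcb1a* transcript occurred in *Abcb1b*, while 24.7% of those in the last 600 bases of *Abcb1b* occurred in *Abcb1a*.

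SP11 did not separate the levels of *Abcb1b*. It stood at 11.2 and 17.3 CPM without SP11 and at 13.3 and 17.5 CPM with it, so the groups overlapped. The log2 fold change of treated over control was -0.02 with a 95% interval of -0.42 to 0.38 (edgeR quasi-likelihood test, adjusted p = 0.972). *Abcb1a* had too few UMIs to be tested, at 0.525 ± 0.302 CPM in controls and 0.205 ± 0.0598 CPM in treated tumors (SD, n = 2 each).

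The multidrug resistance-associated proteins gave the larger differences in the tumor gate. *Abcc1* (MRP1, an exporter of glutathione conjugates) stood at 13.8 and 15.0 CPM without SP11 and at 19.4 and 23.4 CPM with it. *Abcc4* (MRP4, an exporter of cyclic nucleotides and prostaglandins) gave 9.33 and 13.6 CPM against 15.5 and 19.2 CPM with SP11. *Abcc5* (MRP5, also an exporter of cyclic nucleotides) reached 2.80 and 4.54 CPM against 5.53 and 7.17 CPM with SP11. For each of the 3 genes both treated libraries lay above both controls. *Abcc3* (MRP3, an exporter of bile acids and glucuronides) was sparse, at 1.24, 1.16, 1.302 and 1.48 CPM.

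None of these differences passed the unpaired test across all genes, in which 2.31% of 11588 genes were called at an adjusted p under 0.05. The log2 fold change of *Abcc1* was 0.44 with an SE of 0.15 (edgeR, unadjusted p = 0.00988, adjusted p = 0.170). That of *Abcc4* was 0.47 with an SE of 0.18 (edgeR, adjusted p = 0.225), and that of *Abcc5* was 0.66 with an SE of 0.26 (edgeR, adjusted p = 0.226). These correspond to ratios of 1.36, 1.39 and 1.58. For *Abcc3* it was 0.08 with a 95% interval of -0.80 to 0.97 (edgeR, adjusted p = 0.953), an interval that holds large changes in either direction. With the replicate number as a block, *Abcc1* and *Abcc4* passed (edgeR, adjusted p = 0.0236 and 0.0250), but whether those numbers mark pairs is not known.

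Of the 9 genes, 7 had enough UMIs for the unpaired test between treated and control tumor gates. Of these, 0 were called at an adjusted p under 0.05. Of all genes tested, 210 were called higher and 58 lower. Among the 7, edgeR gave an unadjusted p under 0.05 for 3, *Abcc1*, *Abcc4* and *Abcc5*, and DESeq2 gave an unadjusted or adjusted p under 0.05 for 0. The median log2 fold change over the 7 was 0.08, and over all genes tested it was -0.00.

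Other RNA moved with treatment in the same gate. The B cell list summed to 0.311 and 0.106 CPM in the control and to 76.3 and 42.0 CPM in the treated tumor gates. The myeloid check list of 9 genes, led by *Lyz2*, summed to 32.8 and 36.3 CPM in the control and to 241 and 95.4 CPM in the treated tumor gates. The erythroid list of 7 genes, mostly hemoglobins, rose from 267 and 178 CPM to 10615 and 4740 CPM. All 9 myeloid genes were detected in every tumor gate, and tumor-gate cells that also passed another gate numbered 6, 5, 136 and 56. Without those cells the log2 fold changes were as large, 0.46 for *Abcc1*, 0.48 for *Abcc4* and 0.65 for *Abcc5*. Without the barcodes that libraries share, which left 496, 308, 870 and 384 tumor cells, they were 0.50, 0.56 and 0.40. The part of the B cell, myeloid and erythroid RNA in these differences was not tested beyond this.

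**Figure D2:**
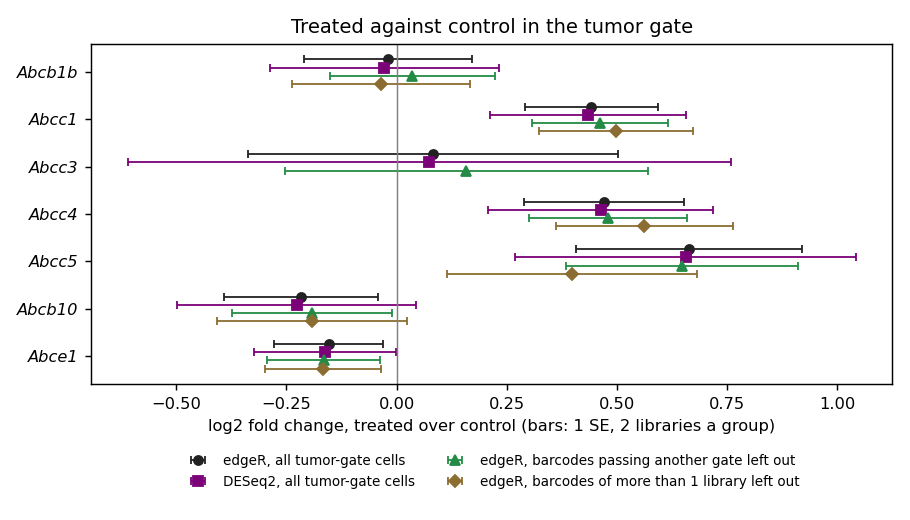
Log2 fold change of treated over control in the tumor gate for the 7 genes tested (x axis), with bars of 1 SE and 2 libraries per group, by edgeR and DESeq2 and after leaving out 2 kinds of barcodes. Abcc1, Abcc4 and Abcc5 lie to the right of 0 in each of the settings drawn, and Abcb1b, Abcc3, Abcb10 and Abce1 lie closer to 0.

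*Abcg2*, the breast cancer resistance protein that exports many drugs and porphyrins, was near the lower limit of these libraries. It gave 7, 7, 10 and 5 UMIs in the tumor gates, or 0.726, 0.739, 0.814 and 0.412 CPM. The treated libraries lay on either side of the controls. It was not tested for low counts. No UMI of *Abcg2* was found in the macrophage and monocyte, B, T, neutrophil or erythroid gates of any library. In the macrophage and monocyte gates of the treated libraries, 3 counts correspond to 12.7 and 10.8 CPM, so a level like that of the tumor cells would not have been detectable there.

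*Abcb10* and *Abce1*, the members that are not drug exporters, were not separated by treatment. *Abcb10* stood at 10.3, 10.6, 8.79 and 10.8 CPM, and the groups overlapped. Its log2 fold change was -0.22 with a 95% interval of -0.59 to 0.15 (edgeR, adjusted p = 0.604). *Abce1* stood at 55.0, 58.5, 50.5 and 61.1 CPM and also overlapped, with a log2 fold change of -0.15 and an interval of -0.42 to 0.11 (edgeR, adjusted p = 0.601).

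Shares of tumor cells with a transcript were compared after each cell was thinned to 5000 UMIs, which left 799, 511, 1151 and 575 cells. *Abce1* was found in 25.7% and 25.6% of control cells and in 22.2% and 23.0% of treated cells. *Abcc1* was found in 6.51% and 6.46% of control cells and in 8.08% and 8.87% of treated cells, and *Abcc4* in 3.75% and 5.87% against 6.69% and 8.35%. The groups did not overlap for these genes, and each p was 0.333, the smallest that 2 against 2 libraries can give (exact two-sided permutation test). For *Abcc1* that separation depended on depth. Thinned to 2000 UMIs, it was found in 2.99% and 3.80% of control and 3.45% and 3.62% of treated cells (exact permutation p = 1). *Abcc4* stayed separated at 2000 UMIs, at 2.27% and 2.09% against 3.13% and 4.66% (exact permutation p = 0.333). *Abcc5* was separated at both depths, at 0.597% and 0.569% against 1.12% and 1.90% at 2000 UMIs (exact permutation p = 0.333). Without thinning, where cells are compared at unequal depth, the groups overlapped for *Abcc1*, *Abcc4* and *Abcc5* (exact permutation p = 0.667 each). At least 1 of the 7 exporter transcripts was found in 19.03 ± 1.60% of control cells and 23.9 ± 3.76% of treated cells (SD, n = 2 each; exact permutation p = 0.333). That difference of 4.92 percentage points ran from 2.26 without Treated 2 to 7.58 without Treated 1, and was 2.53 at 2000 UMIs (exact permutation p = 0.667). Over all 9 genes the shares were 43.5 ± 0.780% and 44.5 ± 3.04% (exact permutation p = 1).

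The direction for *Abce1* also changed with depth. Its share was lower in treated cells by 3.05 percentage points at 5000 UMIs, but higher by 1.01 points at 2000 UMIs and by 0.611 points without thinning. At 5000 UMIs, cells with exactly 2 UMIs of *Abce1* numbered 20, 14, 23 and 23 and those with 3 or more 5, 2, 5 and 1. For *Abcc1* cells with 2 UMIs numbered at most 10 per library and for *Abcc4* at most 4, and for *Abcc5*, *Abcc3* and *Abcg2* there were 0 with more than 1 UMI. For *Abcb1a* the thinned treated libraries held 0 cells with a UMI, which allows shares of up to 0.261% and 0.522% at 3 counts (exact 95% binomial bounds 0.320% and 0.639%), and without thinning they held 2 and 3 such cells. Intervals and limits cover counting error only. Without thinning, *Abcb1b* was found in 0 of 157 and 2 of 146 cells of the B gate of the treated libraries, whose median depths were 854 and 1582 UMIs.

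**Figure D3:**
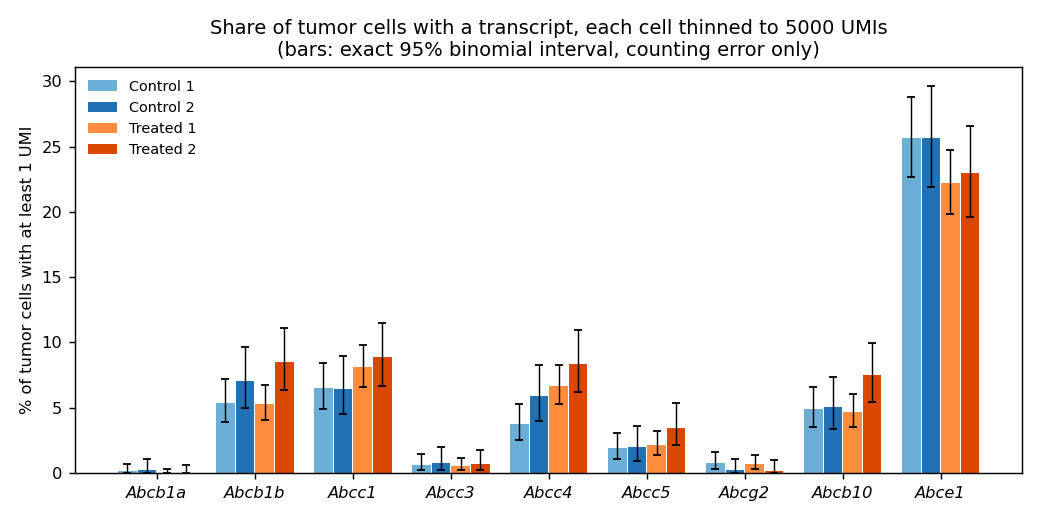
Share of tumor-gate cells with at least 1 UMI of each gene after thinning every cell to 5000 UMIs, with 1 bar per library and exact 95% binomial intervals (counting error only). Abce1 is found in 22.2% to 25.7% of cells, the other genes in under 10%, and the treated bars stand above the control bars for Abcc1, Abcc4 and Abcc5.

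In the macrophage and monocyte gate, *Abcc4* gave 1, 1, 12 and 15 UMIs, or 21.5, 18.6, 50.7 and 53.8 CPM. *Abcc5* gave 0, 1, 6 and 18 UMIs there, or 0, 18.6, 25.3 and 64.6 CPM. In each treated library both genes were higher in this gate than in the tumor cells of the same library. The control gates held 24 and 18 cells and carry little weight.

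With the library as a block over all 4 libraries, *Abcc5* was higher in the macrophage and monocyte gate by 2.61 on the log2 scale with an SE of 0.52 (edgeR, adjusted p = 3.50e-06). *Abcc4* was higher by 1.47 with an SE of 0.42 (edgeR, adjusted p = 0.00182). *Abcc1* was 0.80 higher with an interval of -0.07 to 1.66 (edgeR, adjusted p = 0.132), at 22 UMIs in all, and ran from 0.16 without Treated 1 to 1.07 without Treated 2. Both calls rested on the treated libraries: without Treated 2 the adjusted p was 0.148 for *Abcc5* and 0.149 for *Abcc4*, and without Treated 1 it was 0.000272 and 0.103 (edgeR). With the treated libraries alone and the 3 gates in 1 fit, *Abcc4* was 1.62 higher in the macrophage and monocyte gate (edgeR, adjusted p = 0.00447). This fit reused the treated sums of the fit above. *Abcc4* passed its count filter only through its level in the macrophage and monocyte gate, so the fit is no separate support. *Abcc5* had too few UMIs to be tested in that fit. With no keratin UMI allowed, or without the shared barcodes, 0 members could be tested in it.

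*Abcb1b* gave 0, 1, 1 and 1 UMIs in the macrophage and monocyte gates and *Abcb10* 0, 0, 1 and 0. Summed over libraries, the *Abcb1b* level in that gate was 4.87 CPM against 14.9 CPM in tumor cells, a ratio of 0.328 with a counting interval of 0.0675 to 0.963. The *Abcb10* ratio was 0.161 with a counting interval of 0.00408 to 0.904. Their log2 differences were -1.64 (edgeR, adjusted p = 0.0893) and -2.61 (edgeR, adjusted p = 0.0600), short of the threshold. Of 9 alternatives, *Abcb10* passed it in 3, with RLE normalization, with no filter on low counts (edgeR, lowest adjusted p = 0.0268) and without the shared barcodes, and *Abcb1b* in 1, with no filter (edgeR, adjusted p = 0.0341). With 1 library left out the fitted *Abcb10* difference ran from -1.77 without Treated 2 to -8.77 without Treated 1, where the gate had 0 UMIs and the fitted value is no bound. Without the shared barcodes *Abcc4* (edgeR, adjusted p = 0.0152) and *Abcc5* (edgeR, adjusted p = 1.38e-06) were still called. *Abce1* at 5, 0, 7 and 14 UMIs did not differ by the test (log2 difference -0.46, interval -1.22 to 0.30; edgeR, adjusted p = 0.345).

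Between this gate and tumor cells, 6 of the 9 genes could be tested, of which 2 were called higher and 0 lower. Over all 10436 genes tested 42.3% were called, 17.8% higher and 24.5% lower, with a median log2 difference of -0.44 against 0.17 over the 6. In the treated-only fit 67.5% of 4764 genes were called for the macrophage and monocyte gate and 58.2% for the B gate. Epithelial genes outside the gate, a measure of tumor RNA in immune barcodes, stood at 10.5% of their tumor level in the macrophage and monocyte gate. *Abcc4* and *Abcc5* stood there at 319% and 786% of theirs.

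Treated against control within the macrophage and monocyte gate, 0 of the 9 genes had enough UMIs for the test, where 8.65% of 2126 genes were called. *Abcc4* stood at 18.6 to 21.5 CPM in controls and 50.7 to 53.8 CPM in treated libraries, but each control value rests on 1 UMI. No change could be read at that depth.

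The T gate held the highest measured level of *Abcb1a* among the gates. It gave 1, 0, 1 and 4 UMIs, each in a different cell. Together this was 58.0 CPM against 0.344 CPM in the tumor gate, a ratio of 168 with a counting interval of 53.5 to 459. The B, neutrophil and erythroid gates held 0 UMIs of *Abcb1a*. In the neutrophil gate 3 counts correspond to 78.8 CPM, so a level like that of the T gate would not have been detectable. In the B and erythroid gates 3 counts correspond to 7.06 and 38.0 CPM, below the T gate level. The T gate rests on 109 cells and 103397 UMIs. Only Treated 2 has more than 20 of these cells, so the difference from tumor cells was not tested across libraries. Of the 82 cells in Treated 2, 35 carry barcodes that another library also lists. In the macrophage and monocyte gate all 3 UMIs of *Abcb1a* came from Treated 2. *Abcb1b* in turn gave 1 UMI in the T gate, from Treated 2. The T gate of Treated 2 also held 4 UMIs of *Abcc5*, and none were found in the T gates of the other libraries. Summed over libraries, *Abcc5* in the T gate stood at 7.49 times its tumor level (counting interval 2.02 to 19.4). The same ratio was 7.86 in the macrophage and monocyte gate, so a high *Abcc5* level was not particular to that gate.

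In the B gate, *Abcc4* gave 2 and 9 UMIs in Treated 1 and Treated 2, *Abcc1* 3 and 4, and *Abce1* 6 and 11. Against tumor cells of the same libraries the log2 difference was 0.75 for *Abcc4* with an interval of -0.40 to 1.91 (edgeR, adjusted p = 0.233) and -0.27 for *Abce1* with an interval of -1.02 to 0.48 (edgeR, adjusted p = 0.506). The other 7 genes were too sparse to test. Neutrophil gates gave 1 UMI each of *Abcc4*, *Abcc5* and *Abce1*, and erythroid gates 1 UMI of *Abcb10*, all from Treated 2. In that library these gates held 39 and 17 cells, where 1 UMI corresponds to 32.9 and 22.0 CPM and 3 UMIs to 98.6 and 66.1 CPM.

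**Figure D4:**
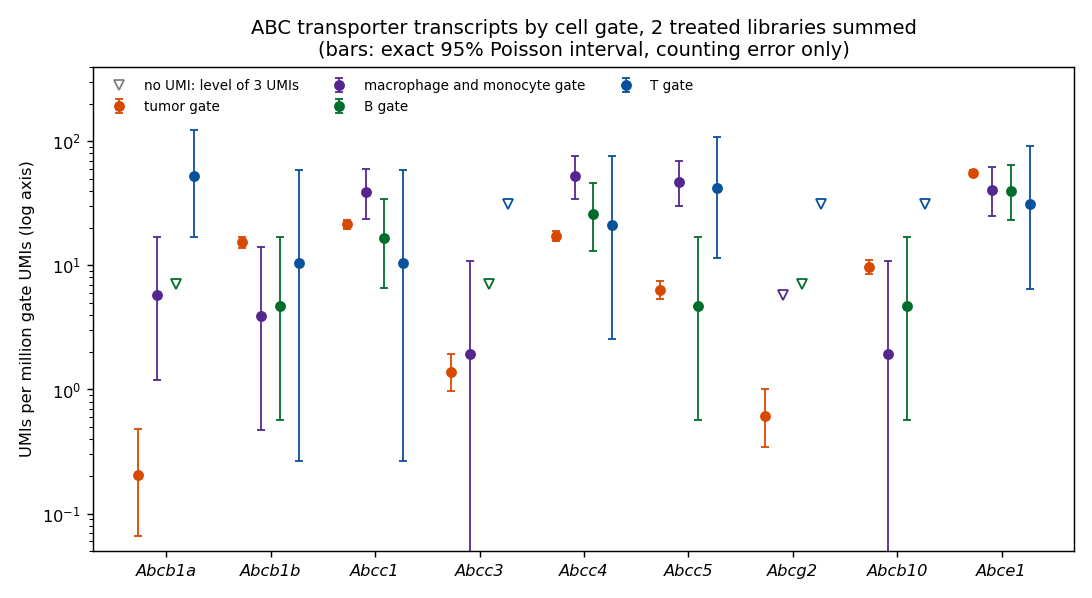
Level of each of the 9 genes in 4 gates with the 2 treated libraries summed, as UMIs per 1000000 gate UMIs on a log axis, with exact 95% Poisson intervals (counting error only) and open triangles at the level of 3 UMIs where a gate had none. Abcc4 and Abcc5 lie higher in the macrophage and monocyte gate (52.4 and 46.6 CPM) than in the tumor gate (17.4 and 6.35 CPM). Abcc5 in the T gate lies at 42.0 CPM on 4 UMIs. Abcb1b lies highest in the tumor gate, and Abcb1a is highest in the T gate.

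Other ABC genes give a frame for these levels. Of 43 further ABC genes, 32 had a UMI in the tumor gate and 22 in the macrophage and monocyte gate. The highest in tumor cells were *Abcf1* (304 CPM) and *Abcf2* (105 CPM), which encode ABC proteins without a membrane part. In the macrophage and monocyte gate *Abcf1* (162 CPM) led, followed by the cholesterol exporters *Abca1* (84.5 CPM) and *Abcg1* (81.2 CPM). Of the 20 tested between these gates, 8 were called higher and 4 lower in the macrophage and monocyte gate. Over all 10436 genes tested, 17.8% were called higher and 24.5% lower. *Abcg1* was higher by 7.33, *Abca1* by 7.44 and the peptide transporter gene *Tap1* by 4.68 on the log2 scale (edgeR, adjusted p = 5.66e-39, 2.55e-31 and 7.88e-21). *Abcd2*, a peroxisomal fatty acid transporter, was also called higher (edgeR, adjusted p = 2.89e-17), at 1, 1, 4 and 12 UMIs in the macrophage and monocyte gates and 0, 0, 3 and 0 in the much larger tumor gates.

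Between treated and control tumor gates 0 of 18 tested further ABC genes were called by edgeR or DESeq2, with 3 and 2 at an unadjusted p under 0.05. Over all 11588 genes tested edgeR called 2.31%, a share at which short lists hold few or no calls. Lists of genes around the transporters were also examined in that comparison. Of 14 tested regulators of efflux genes (such as *Nfe2l2*, *Hsf1* and *Ybx1*), 12 tested glutathione and conjugation genes, 6 drug uptake carriers and 10 ribosome recycling partners of *Abce1*, 0 were called by either tool. At an unadjusted p under 0.05 edgeR gave 2, 1, 0 and 2 of them and DESeq2 2, 1, 0 and 3. Their median log2 fold changes were 0.02, -0.21, 0.11 and -0.06. Of 10 heme partners of *Abcb10*, 1 was called: *Alas2*, the heme synthesis enzyme of red cell precursors, at 3, 2, 120 and 62 UMIs in the tumor gates and 4.66 higher on the log2 scale (edgeR, adjusted p = 6.71e-05). It moved with the hemoglobin genes given above.

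The same lists were compared between the macrophage and monocyte gate and tumor cells, where 42.3% of all genes tested were called. Of 13 tested regulators 5 were called higher, among them *Hif1a* (the hypoxia factor) by 1.91, *Foxo3* by 2.27, *Rxra* by 3.19 and *Nfe2l2* (the oxidative stress factor NRF2) by 1.49 on the log2 scale, and 2 were lower. Of 9 glutathione and conjugation genes, 1 was higher and 4 lower, with *Mgst1* higher by 5.08 and *Mgst3* lower at -2.44. Of 10 ribosome recycling partners, 5 were lower and 0 higher, with *Denr* at -1.32 and *Gspt1* at -1.16. Of 10 heme partners, 2 were higher, *Blvrb* by 2.10 and *Alas2* by 3.39, and 1 was lower, *Cpox* at -1.38. The erythroid list, which includes *Alas2*, summed to 301, 298, 66385 and 50363 CPM in the macrophage and monocyte gates. The part of red cell RNA in the *Alas2* difference was not tested. Of 6 uptake carriers, the copper carrier *Slc31a1* was higher by 1.35 and the folate carrier *Slc19a1* lower at -2.94.

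Within the tumor gate, cells of each library were split by the share of their UMIs on 16 mitotic genes, such as *Cenpf* and *Top2a*, and the highest tercile was compared with the lowest. *Abcc5* stood at 3.25, 5.69, 7.101 and 10.2 CPM in the low tercile and at 2.78, 3.87, 4.64 and 6.53 CPM in the high tercile. It was lower in the high tercile of each of the 4 libraries. The log2 difference was -0.62 with an SE of 0.23 (edgeR, adjusted p = 0.0469). The call did not hold in DESeq2 (adjusted p = 0.517) or when any 1 library was left out (edgeR, adjusted p between 0.0563 and 0.200). *Abce1* was also lower in the high tercile of all 4 libraries, by -0.19 on the log2 scale (edgeR, adjusted p = 0.0535).

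Of the 6 genes tested in this split, 1 was called lower and 0 higher, where 24.1% of 9756 genes were called, 12.8% lower and 11.3% higher. All 6 log2 differences were below 0, with a median of -0.23 against -0.01 over all genes tested. The high tercile was also deeper, with median UMIs per cell of 10512 to 22990 against 7518 to 17699 in the low tercile. When every cell was first thinned to 5000 UMIs, the differences of *Abcc1* and *Abcb10* turned to 0.30 and 0.26, and *Abcc5* was too sparse to test. Of the ribosome recycling partners 3 were called lower in the high tercile, *Eif3j1* at -0.35, *Eif3j2* at -0.37 and *Gspt1* at -0.11 (edgeR, adjusted p = 0.000762, 0.0127 and 0.0329). Of the other lists *Gsto1* (-0.34) and *Slc25a37* (-0.30) were called lower, *Keap1* (0.27) and *Ppox* (0.61) higher, and 0 of 17 further ABC genes were called (1 at an unadjusted p under 0.05 by edgeR, 0 by DESeq2).

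**Figure D5:**
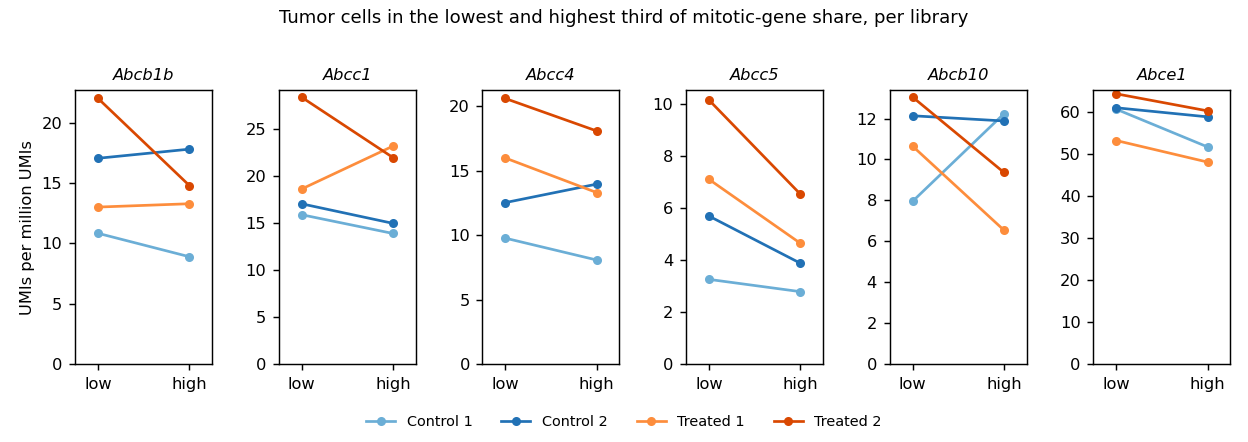
Level of 6 genes, as UMIs per 1000000, in tumor-gate cells of the lowest and highest tercile of mitotic-gene share, with 1 line per library. Abcc5 and Abce1 fall from low to high in all 4 lines, and the lines of the other genes run in both directions.

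Tumor cells thinned to 5000 UMIs were also split by a UMI of *Myc*, a growth-promoting transcription factor, or of *Bcl2*, an inhibitor of apoptosis. Cells with a *Myc* UMI numbered 95, 70, 145 and 80, and those with a *Bcl2* UMI 19, 17, 41 and 31. Of the 5 members tested in each split, 0 were called by edgeR or DESeq2, with 0 at an unadjusted p under 0.05. By edgeR 0.128% of 7825 genes were called for *Myc* and 0.0395% of 7586 for *Bcl2*. *Abcb1b* was 0.11 higher in cells with *Myc* (interval -0.49 to 0.71; edgeR, adjusted p = 0.982) and 0.78 higher in cells with *Bcl2* (interval -0.19 to 1.76; edgeR, adjusted p = 0.994). The *Bcl2* cells gave 3, 1, 4 and 5 UMIs of it, so that wide intervals were all this depth allowed.

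The genes most like each member were sought over 12 sums of gate and library, among 10456 genes, by Pearson correlation of log levels, as a description only. The closest 3 were *Tfcp2*, *Slc12a2* and *Mtg1* for *Abcb1b* (r from 0.990 to 0.997) and *Ap1b1*, *Acaca* and *Ptprs* for *Abcc1* (0.984 to 0.996). For *Abcc4* they were *Enox2*, *Gnaq* and *Ilrun* (0.960 to 0.988), and for *Abcc5* *Fam234a*, *Dpysl2* and *Srp54a* (0.932 to 0.961). For *Abcb10* they were *Afap1*, *Zcchc4* and *D11Wsu47e* (0.994 to 0.997), and for *Abce1* *Ctdnep1*, *Glul* and *Tspan31* (0.983 to 0.991). The sums share libraries and differ in depth, and sparse sums hold many zeros. *Abcb1a*, *Abcc3* and *Abcg2* had fewer than 100 UMIs in all kept cells (25, 58 and 30) and were not compared in this way.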

How the data were processed

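Per the labels and the study's methods, the authors prepared droplet 3′ libraries and deposited the UMI counts of each gene in each barcode as Cell Ranger 7.1.0 wrote them, with no normalization. The labels name the mouse build mm10 while the study's text names a human build, and the intron and strand settings are not given in the sources used here. From these counts, barcodes with at least 200 genes and at most 10% mitochondrial UMIs were kept (566 to 1831 per library, 9574906 to 13024964 UMIs). Doublets were not called, and a barcode passing more than 1 immune gate entered none. UMIs were summed per library and gate and fitted across all genes with edgeR 4.0.16 (TMM, filterByExpr, quasi-likelihood F test, Benjamini-Hochberg threshold 0.05; SEs and intervals derived from F). Treatment was the term between groups, and the library was a block in comparisons within libraries. DESeq2 1.42.0, other gates, filters and left-out libraries were alternatives, and the scripts were tested on simulated data. Shares used an exact permutation test, exact binomial or Poisson intervals at 95% (counting error only), and a floor of 3 counts (scipy 1.17.1). CPM is UMIs per 1000000 UMIs of the gate in that library.

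The members and gene lists were chosen with earlier results of these data known. All 9 members were named in each comparison. From the other lists, called genes were named, up to 4 per list and comparison by smallest p, with the 3 highest further ABC genes per gate described and, for members with at least 100 UMIs, the 3 genes of highest correlation. Some values that this rule names are not reported here. Gene positions came from GENCODE vM21 and promoters from RefSeq.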

Additional observations from a re-analysis of the deposited data

How the results depend on the processing

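Of the values for single genes, 311 kept their direction under an alternative, 22 changed sign, 10 lost and 7 gained a call. The 311 also kept their side of the threshold, except that shares of cells were judged by direction only. For treated against control tumor cells, 268 genes were called, against 149 by DESeq2, 158 without barcodes that passed another gate, and 78 to 425 with 1 library left out. Without those barcodes *Abcb1b* was at 0.036, and it ran from -0.28 to 0.30 with 1 library left out. *Abcc4* ran from 0.24 (without Control 1) to 0.74, *Abcc5* from 0.37 to 1.03 and *Abcc1* from 0.36 to 0.53. With the replicate number as a block 1038 genes were called, and the adjusted p was 0.0236 for *Abcc1*, 0.0250 for *Abcc4* and 0.0660 for *Abcc5*. The samples share only a number, so this pairing is not shown. Deviations of same-numbered libraries correlated at r = 0.125, and with 2 libraries a group both pairs give this same value by construction. In the macrophage and monocyte gate the 184 calls became 94 (DESeq2), 81 (no filter), 87 (at least 6 gate UMIs), 37 (no keratin UMI), 66 (shared barcodes left out, chosen after seeing the data) and 45 to 123 (1 library left out). Between that gate and tumor cells 4417 calls became 2503 to 4303 with 1 library left out, and in the treated-only fit 3217 became 4851 with no filter. For mitotic terciles 2350 calls became 940 (DESeq2), 1069 (thinned, chosen after seeing the data, with *Abcc1* at 0.30 and *Abcb10* at 0.26) and 1807 to 1887. For *Myc* 10 calls became 2 (DESeq2), 22 (no filter) and 2 to 13, with left-out ranges of -0.089 to 0.24 for *Abcb1b*, -0.074 to 0.31 for *Abcc4*, -0.40 to 0.033 for *Abcb10* and -0.081 to 0.013 for *Abce1*. For *Bcl2* 3 calls became 1 (DESeq2), 14 (no filter) and 1 to 6, with *Abcb10* from -1.99 to 0.15. The treated minus control share of cells with any of the 9 genes, 0.980 percentage points, ran from -1.17 (without Treated 2) to 3.13. Shares of single genes ran from -0.914 to 2.31 points for *Abcb1b*, -0.316 to 0.239 for *Abcg2* and -0.293 to 2.49 for *Abcb10*, and without thinning *Abcc3* was at 0.526 and *Abce1* at 0.611, the latter at 1.01 when thinned to 2000 UMIs. The causes were not tested. With 2 libraries a group and few UMIs per cell, small changes in *Abcb1a*, *Abcc3* and *Abcg2* were beyond this depth.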
